A study of Mus musculus with 145 samples.

Results

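The T cell receptor cannot signal without the CD3 chains, and the genes described here are those chains with the proteins that act next to them. The set was named by symbol: Cd3d, Cd3e, Cd3g and Cd247, which encode the CD3 delta, epsilon, gamma and zeta chains, Lck and Zap70, which encode kinases, Lat, which encodes an adaptor, and Cd5 and Cd6, which encode surface co-receptors. A member was measured where the array held a probe set annotated to its symbol and to no other symbol. By that rule 8 of the 9 named genes were measured, each by 1 probe set, among 24922 probe sets that carry 19752 distinct symbols. Lck is not analysed here.

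The receptor binds a peptide held by an MHC molecule but has no signalling domain of its own. The CD3 chains bring it to the cell surface and carry tyrosine motifs in their tails, which Lck phosphorylates when the receptor is engaged. Zap70 docks on the phosphorylated motifs and phosphorylates Lat, the scaffold on which phospholipase C gamma and the Ras activators assemble. Cd5 and Cd6 belong to the scavenger receptor family, sit close to the receptor and tune its signal, and Cd5 protein on thymocytes is known to follow the strength of receptor signalling.

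The series profiles sorted mouse immune and stromal cells on Affymetrix arrays, in 65 groups. Of these groups, 25 are T cells or thymocytes and 40 are other cells. By their titles, the other cells include Gata6 knockout macrophages, knockout medullary epithelium and lymph node stroma taken after the adjuvant CFA. The other cells also differ in age. All of them were kept in the counts and medians over other groups and in the correlations over all groups. The number of arrays per group was 1 in 12 groups, 2 in 28, 3 in 23 and 4 in 2, and this number limits the precision of every value. The labels do not say whether arrays of a group came from separate mice, so each p-value reflects the spread among the arrays alone, which may be technical.

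The cultured cells were naive lymph node T cells (CD25- CD62Lhi CD44 Lo) from C57BL/6 males of 6 weeks, sorted as CD4+ CD8- or CD8+ CD4-. They were cultured with antiCD3 and CD28 beads and collected at 1, 5, 24, 48 and 96 h. Control arrays have no time in their labels but carry the same treatment field as the others, so effects of the beads and of culture itself cannot be told apart. Spleen CD4 cells came from C57BL/6J males of 6 weeks, as CD44- naive cells, CD44+ CD11a+ CD49d+ cells on day 8 of LCMV infection (effector) and the same phenotype on day 30 (memory). Spleen CD8 cells came from B6 males of 45 days after infection with LisOVA: day 6 OT1 effectors titled Tbet+ (CD45.2+ CD45.1-) or Tbet- (CD45.1+ CD45.2-), and day 8 CD45.1+ cells sorted as KLRG1+ CD127- or KLRG1- CD127+. OT1 cells carry a receptor transgene, so their CD3 chains pair with a fixed receptor. Adult thymocytes were CD4+ CD8+ double-positive (DP) cells, CD69- or CD69+, from males of 6 weeks. Fetal thymocytes are titled e17, although their age field reads 5 weeks, and were CD69- DP cells of mixed sex, Vg2+ CD24hi gamma delta cells, and gamma delta cells titled vg4 that were sorted as negative for Vg1.1, Vg2, Vg3 and Vg5 and as CD24hi or CD24lo. Thymic epithelial cells (PI- CD45-) came from C57BL/6 males of 8 weeks, and the 3 groups compared here share the phenotype field EpCAM+ Ly51+ MHCII+ Sca1+ and differ only in their titles. Mast cells (CD45+ CD117+ FcER1a+) and blood eosinophils (SSChi SiglecF+) came from C57BL/6 males, the mast cells of 6 weeks and the eosinophils of 44 to 50 days.

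Values are intensities on the linear scale, and every difference is a difference of log2 intensities ± its standard error. Probe sets differ in brightness, so no gene's level is set against another's. A background level of 91.8 was taken as the 95th percentile of the 1035 probe sets annotated to olfactory receptors. Array medians ran from 112 to 147, and the correlation of arrays within a group had a median of 0.992 and a lowest value of 0.922. Labels were checked against the genes they name. Tbx21, which encodes T-bet, averaged 292 in Tbet- and 3176 in Tbet+ effectors, Klrg1 averaged 3936 in KLRG1+ and 149 in KLRG1- cells, and Cd69 averaged 3428 in CD69+ and 284 in CD69- thymocytes. In bulk samples such as these, fewer cells of a type and less RNA per cell cannot be told apart.

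All 8 genes were above background in all 25 T cell and thymocyte groups, and for each of the 8 genes 0 of the 40 other groups reached the level of the lowest T cell group. Cd3d, the delta chain, had T cell group means from 569 in CD8 cells at 24 h to 2189 in KLRG1- CD127+ cells, with a median of 1242. Its median over the other groups was 52.3, and 2 of those groups were above background, blood neutrophils at 134 and thymic cortical epithelium at 120.3. Cd3e, the epsilon chain, ran from 4958 in CD4 cells at 24 h to 10022 in naive spleen CD4 cells, with a median of 7406. All 40 other groups were above background for this probe set, at a median of 155, so background in the sense used here is a low mark for it. Cd3g, the gamma chain, ran from 2531 in CD4 cells at 24 h to 8182 in CD69+ DP thymocytes, with a median of 5432, against a median of 46.9 and 12 groups above background among the others. Cd247, the zeta chain, ran from 673 in CD8 cells at 24 h to 2133 in CD69+ DP thymocytes, with a median of 1302. Its median over the other groups was 126 and 38 of them were above background, so the mark is low for Cd247 as well. The lowest T cell group was a culture at 24 h for each of the 4 CD3 chains.

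For Zap70 the order differed, from 445 in CD69- DP thymocytes to 1511 in CD4 cells at 5 h, with a median of 747. Among the other 40 groups 1 was above background, thymic cortical epithelium at 95.2, so Zap70 and Cd3d had the fewest of the 8 genes above background outside T cells. Lat spanned the narrowest range of the 8 genes in T cells, from 2355 in CD8 cells at 24 h to 4598 in naive spleen CD4 cells, a ratio of 1.95, and it was above background in 28 other groups. Cd5 spanned the widest, from 1009.8 in CD24lo gamma delta thymocytes to 8238 in CD69+ DP thymocytes, a ratio of 8.16. The background mark was low for Cd5 too, with 36 other groups above it and a median of 116 over the other groups. Cd6 ran from 765 in Vg2+ gamma delta thymocytes to 3410.2 in CD69+ DP thymocytes, a ratio of 4.46, and 26 other groups were above background, with a median of 98.6 over the other groups. Neighbours in these orders mostly overlapped. Among the 23 T cell groups with at least 2 arrays, the array ranges of neighbouring groups overlapped in 15 of 22 steps for Cd5, 17 for Cd3g, 18 for Cd6, 19 for Cd3d and Cd247, 20 for Zap70 and Lat, and 22 for Cd3e, so the Cd3e order holds no step larger than the spread between arrays.

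**Figure D1:**
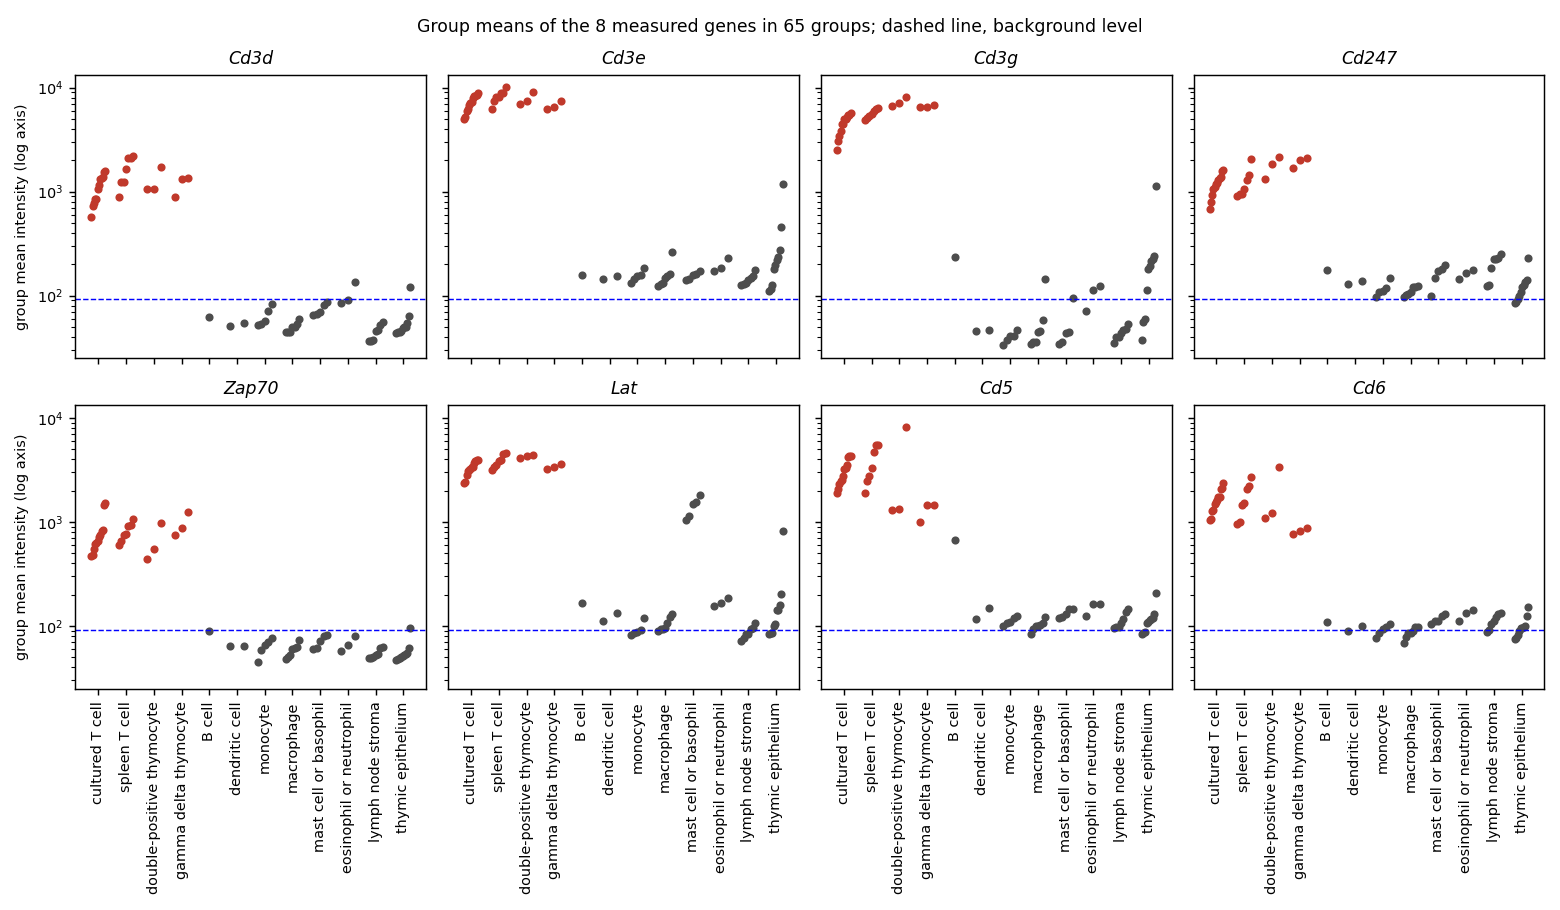
Group mean intensity (log axis) of the 8 measured genes in 65 groups, arranged by lineage along the horizontal axis; each point is a group and the dashed line is the background level of 91.8. The 25 T cell and thymocyte groups (red) lie above every other group for each gene, while the mast cells and basophils reach 1827 for Lat and the B1a group reaches 671 for Cd5.

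Cd3g and Cd3d are transcribed away from each other from starts 1355 bases apart, and the start of Cd3e lies 27825 bases from that of Cd3d. Because Cd3g and Cd3d are neighbours that both fell and recovered in culture, the 250 bases upstream of their RefSeq starts are shown, read from the RefSeq promoter table for GRCm38.p6. Each is written 5′ to 3′ on the strand of its gene, chr9:44980432-44980681 on the minus strand for Cd3g and chr9:44981536-44981785 on the plus strand for Cd3d. Capitals mark matches, on either strand, to 5 motifs that were searched: an Ets core GGAAGT, an E box CAGGTG, a Runx site TGTGGT, a Tcf and Lef site CTTTGA and a Gata site TGATAA.
Cd3g: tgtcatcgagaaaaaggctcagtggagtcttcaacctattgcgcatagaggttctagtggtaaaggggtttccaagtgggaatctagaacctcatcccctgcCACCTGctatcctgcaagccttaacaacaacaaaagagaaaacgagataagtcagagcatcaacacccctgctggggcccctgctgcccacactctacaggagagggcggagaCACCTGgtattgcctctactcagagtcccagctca
Cd3d: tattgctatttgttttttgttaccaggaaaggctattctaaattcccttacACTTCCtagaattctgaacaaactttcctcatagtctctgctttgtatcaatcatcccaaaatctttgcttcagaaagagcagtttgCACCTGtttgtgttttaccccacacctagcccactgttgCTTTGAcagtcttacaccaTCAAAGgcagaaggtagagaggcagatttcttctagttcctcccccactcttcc
The Cd3g stretch holds the E box at 148 and 35 bases before the start and none of the other 4 motifs. The Cd3d stretch holds the Ets core at 199, the E box at 112, and the Tcf and Lef site at 73 and 54 bases before the start. Over 9 annotated starts of 7 members, Cd6 having no entry, the E box was present at 6 and the Ets core at 5, the Tcf and Lef site at 2, the Runx site at 1 and the Gata site at 0. The shares over all 32851 promoters of the same length were 17.2%, 19.7%, 13.8%, 14.1% and 7.94%. These matches describe letters and are not binding sites.

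In CD4 cells the mean of each CD3 chain was lowest at 24 h of culture and higher again at 48 h. Cd3g was 5027 and 5009.8 on the control arrays, 3836 and 3763 at 1 h, 3180.2 and 2926 at 5 h, 2746 and 2315 at 24 h, 5569.7 and 4786 at 48 h and 5033 on the only array at 96 h. Both arrays at 1, 5 and 24 h were below both controls, and those at 48 h lay on either side of them. The change from control was -0.40 ± 0.12, adjusted p = 0.032 at 1 h, -0.72 ± 0.12, adjusted p = 0.00031 at 5 h and -0.99 ± 0.12, adjusted p = 6.3e-06 at 24 h. Cd247 was 1599 and 1592 on the controls, 1377 and 1176 at 1 h, 1257 and 1092 at 5 h, 781 and 789 at 24 h and 1489 and 1207 at 48 h. It also lay below the controls on both arrays at each of these times. Its change was -0.45 ± 0.13, adjusted p = 0.017 at 5 h and -1.02 ± 0.13, adjusted p = 9.99e-06 at 24 h. The 5 h call was lost without either control array or without 5 h replicate 2 (adjusted p = 0.063, 0.057 and 0.16). The 1 h call for Cd3g was lost without any 1 of the 4 arrays compared, with adjusted p from 0.073 to 0.14.

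The delta and epsilon chains fell at 24 h too, with wider spread. Cd3d was 839 and 1916 on the controls and 654 and 798 at 24 h (-0.81 ± 0.28, adjusted p = 0.021). The controls stood far apart, and without control replicate 2 the difference was -0.22, adjusted p = 0.42, while without 24 h replicate 1 it was -0.67, adjusted p = 0.12. Cd3e was 9521 and 7132 on the controls and 3923 and 5994 at 24 h (-0.77 ± 0.26, adjusted p = 0.022). Without 24 h replicate 1 it was -0.46, adjusted p = 0.22, and without control replicate 1 -0.56, adjusted p = 0.16. From 24 to 48 h Cd3d rose by 1.08 ± 0.28, adjusted p = 0.0062, Cd3g by 1.03 ± 0.12, adjusted p = 1.1e-05 and Cd247 by 0.77 ± 0.13, adjusted p = 0.00030, whereas Cd3e did not pass (0.48 ± 0.26, adjusted p = 0.19). The Cd3d rise had an adjusted p of 0.053 without 24 h replicate 1.

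Zap70, the kinase, was above control at 5 h in CD4 cells. On CD4 arrays it was 683 and 567 in controls, 547 and 401 at 1 h, 1501 and 1520.4 at 5 h, 814 and 860.1 at 24 h, 895 and 727 at 48 h and 618 at 96 h. Both 5 h arrays were far above both controls, and Zap70 rose by 1.28 ± 0.16, adjusted p = 1.2e-05. It then fell from 5 to 24 h (-0.85 ± 0.16, adjusted p = 0.00057). At 24 h it was still above control by 0.43 ± 0.16, adjusted p = 0.032, a call that was lost after quantile normalization (0.14, adjusted p = 0.45), without either 24 h array (adjusted p = 0.066 and 0.12) and without control replicate 2 (0.20). Lat, the scaffold downstream of Zap70, was also lowest at 24 h: it was 4119.8 and 3558 on the controls, 3332 and 3373 at 5 h, 2264 and 2639 at 24 h and 3363 and 3398 at 48 h. Both 24 h arrays were below both controls (-0.65 ± 0.12, adjusted p = 0.00030), and Lat fell from 5 to 24 h (-0.46 ± 0.12, adjusted p = 0.0080) and rose from 24 to 48 h (0.47 ± 0.12, adjusted p = 0.0064). Without 24 h replicate 1 those last 2 changes had adjusted p of 0.085 and 0.077.

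Both co-receptor genes were lower in CD4 cells at 1 h. Cd5 on CD4 arrays was 4987 and 3684 in controls, 2599.6 and 2373 at 1 h, 4365 and 4329.6 at 5 h, 3127 and 3512 at 24 h and 3902 and 4462 at 48 h. Only the 1 h change passed the test against control (-0.79 ± 0.17, adjusted p = 0.0045), and it had an adjusted p of 0.058 without control replicate 1. Cd6 was 1639.7 and 1851 in controls, 1162 and 919 at 1 h, 2181 and 2056 at 5 h and 2039.9 and 2738 at 24 h. It fell at 1 h (-0.75 ± 0.16, adjusted p = 0.0034) and was above control at 24 h (0.44 ± 0.16, adjusted p = 0.029), so the sign of the Cd6 difference turned between those times. The 1 h call was lost without 1 h replicate 2 (-0.58, adjusted p = 0.061). The 24 h call was lost after quantile normalization (0.20, adjusted p = 0.25), without 24 h replicate 2 (0.23, adjusted p = 0.30) and without control replicate 1 (0.35, adjusted p = 0.15).

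Counted over the members, 3 of 8 fell and none rose in CD4 cells at 1 h, 2 fell and 1 rose at 5 h, 5 fell and 2 rose at 24 h, and 0 of 8 passed at 48 h, where 1 (Zap70) had an unadjusted limma p under 0.05. Against control, 6.38% of all probe sets tested were called higher and 13.8% lower at 1 h, with a split of 920 to 1983 that became 1394 to 1849 after quantile normalization. At 5 h 19.3% were higher and 11.9% lower. By 24 h 33.1% were higher and 20.2% lower, a split of 4774 to 2918 that became 3686 to 3807 after quantile normalization, which moved the median difference of all probe sets by -0.12. With 24.5% higher and 10% lower, the 48 h split of 3529 to 1444 became 2504 to 2689, with a median shift of -0.13. From 5 to 24 h 3 members fell (Cd247 by -0.58 ± 0.13, adjusted p = 0.0033, Zap70 and Lat), against 22% of probe sets higher and 11.3% lower (3177 to 1624, and 2432 to 2229 after quantile normalization). From 24 to 48 h 4 members rose, against 15.6% higher and 17.7% lower. These comparisons share control or time point arrays. Some differences that did not pass as run passed in another setting. Without control replicate 1, Cd3d passed at 1 h (-1.17, adjusted p = 0.0026) and at 5 h (-1.31, adjusted p = 0.00040), the latter also without 5 h replicate 2 (-0.98, adjusted p = 0.045). At 5 h it also passed with the 75th percentile filter (adjusted p = 0.044), in a single fit of all arrays (0.014), after quantile normalization (0.021) and with the replicate number as a block (0.033). Without control replicate 2, Cd5 passed at 24 h (-0.59, adjusted p = 0.020) and Cd3d at 48 h (0.86, adjusted p = 0.0079), in opposite directions. Quantile normalization gave calls for Cd5 at 24 h (-0.55, adjusted p = 0.018), Cd247 at 48 h (-0.44, adjusted p = 0.013), and Cd3g (-0.40, adjusted p = 0.049) and Cd5 (-0.57, adjusted p = 0.024) from 5 to 24 h. It ended the 1 h call for Cd3g (-0.32, adjusted p = 0.12). Zap70 passed at 1 h without 1 h replicate 1 (-0.63, adjusted p = 0.016), and the 5 to 24 h fall of Cd247 was lost without 5 h replicate 1 (-0.48, adjusted p = 0.051). In a single fit of all arrays the Cd3g calls at 1 h (adjusted p = 0.44) and 5 h (0.075) and the Lat calls from 5 to 24 h (0.18) and 24 to 48 h (0.18) were lost.

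Members of the CD4 series that did not pass are given here as log2 differences ± SE. At 1 h they were -0.57 ± 0.28 for Cd3d, -0.19 ± 0.26 for Cd3e, -0.33 ± 0.13 for Cd247, -0.41 ± 0.16 for Zap70 and -0.30 ± 0.12 for Lat, with a lowest adjusted p of 0.080. The 5 h differences were -0.72 ± 0.28 for Cd3d, -0.49 ± 0.26 for Cd3e, -0.19 ± 0.12 for Lat, 0.02 ± 0.17 for Cd5 and 0.28 ± 0.16 for Cd6, with a lowest adjusted p of 0.059. All of the 1 h values were below 0, whereas at 5 h the co-receptor genes were above it. The remaining difference at 24 h was -0.37 ± 0.17 for Cd5 (adjusted p = 0.081). At 48 h the 8 differences were 0.27 ± 0.28 for Cd3d, -0.28 ± 0.26 for Cd3e, 0.04 ± 0.12 for Cd3g, -0.25 ± 0.13 for Cd247, 0.37 ± 0.16 for Zap70, -0.18 ± 0.12 for Lat, -0.04 ± 0.17 for Cd5 and 0.25 ± 0.16 for Cd6, with a lowest adjusted p of 0.076. From 5 to 24 h the values were -0.09 ± 0.28 for Cd3d, -0.27 ± 0.26 for Cd3e, -0.27 ± 0.12 for Cd3g, -0.39 ± 0.17 for Cd5 and 0.16 ± 0.16 for Cd6, with a lowest adjusted p of 0.093. From 24 to 48 h the remaining values were -0.05 ± 0.16 for Zap70, 0.33 ± 0.17 for Cd5 and -0.19 ± 0.16 for Cd6, with a lowest adjusted p of 0.17.

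**Figure D2:**
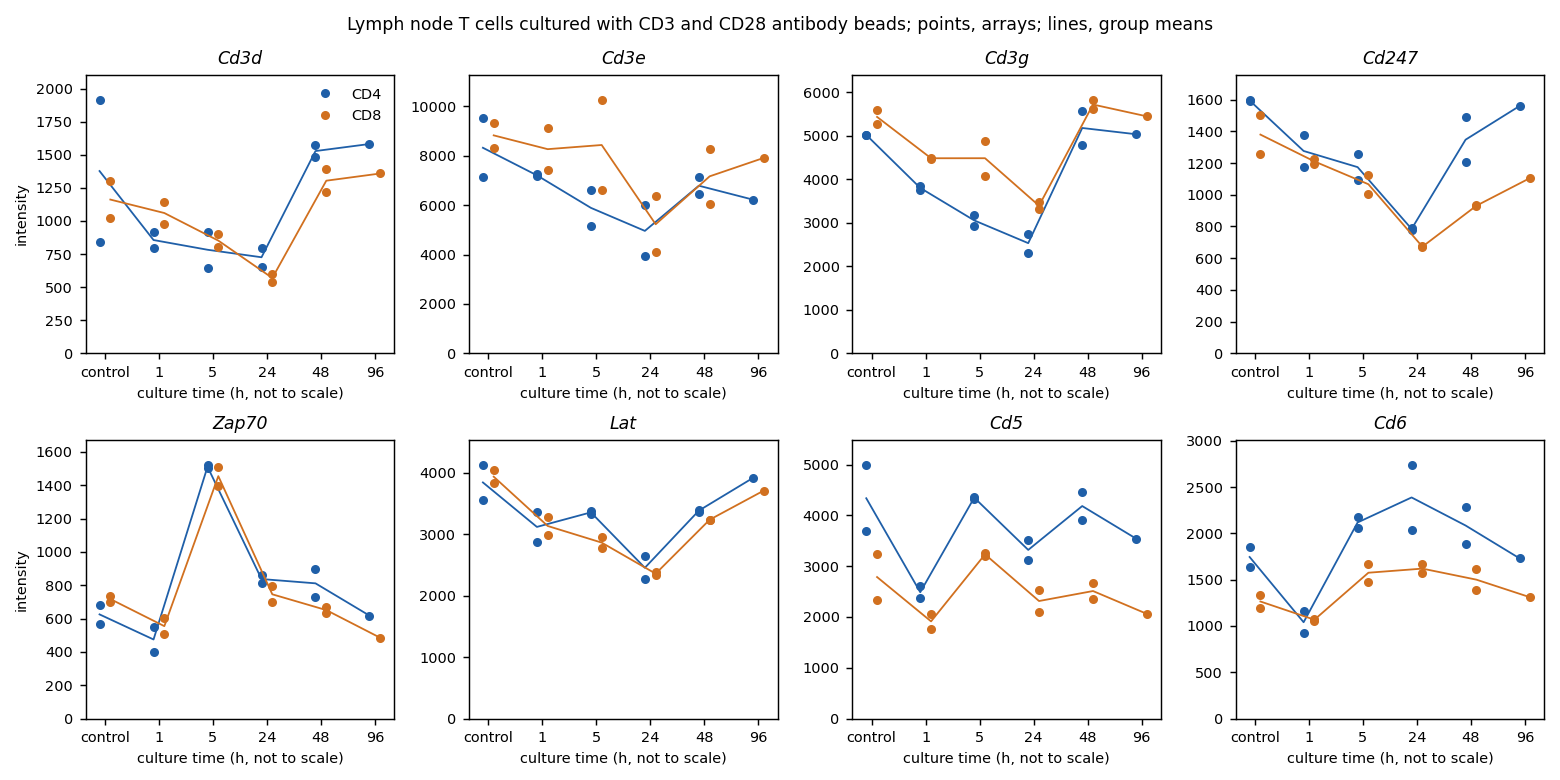
Intensity of each gene on every array of the cultured CD4 (blue) and CD8 (orange) cells by culture time in h (not to scale); points are arrays, lines join group means, and 96 h has 1 array per cell type. In CD4 cells Cd3g fell from 5027 and 5009.8 on the control arrays to 2746 and 2315 at 24 h, and Zap70 peaked at 5 h at 1501 and 1520.4.

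In CD8 cells the means of the same 4 chains and of Lat were lowest at 24 h. Cd247 was 1255 and 1505 on the controls, 1195 and 1226 at 1 h, 1006 and 1128 at 5 h, 671 and 674 at 24 h, 928 and 935 at 48 h and 1107 at 96 h. It fell by 24 h (-1.03 ± 0.13, adjusted p = 1.3e-05) and was still below control at 48 h (-0.56 ± 0.13, adjusted p = 0.0052), a call lost without control replicate 2 (-0.43, adjusted p = 0.078). Cd3d was 1024 and 1300.1 on the controls, 601 and 537 at 24 h and 1394 and 1216 at 48 h. The 24 h arrays were far below the controls (-1.02 ± 0.28, adjusted p = 0.0068), and Cd3d rose again by 48 h (1.20 ± 0.28, adjusted p = 0.0031). Without control replicate 2 the 24 h fall was -0.85, adjusted p = 0.065. Cd3g was 5279 and 5585 on the controls, 3304 and 3477 at 24 h and 5824 and 5609.8 at 48 h. It fell at 24 h (-0.68 ± 0.12, adjusted p = 0.00032) and returned at 48 h (0.75 ± 0.12, adjusted p = 0.00020). Cd3e was 8315 and 9344 on the controls and 4088 and 6366 at 24 h (-0.79 ± 0.26, adjusted p = 0.022), and this call was lost without 24 h replicate 1 (0.23) or either control (adjusted p = 0.055 and 0.11).

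Zap70 again peaked at 5 h in CD8 cells, at 1397 and 1512 against 699 and 735 on the controls (1.02 ± 0.16, adjusted p = 0.00013). By 24 h it had returned to 697 and 794 (-0.97 ± 0.16, adjusted p = 0.00027 from 5 h). Lat was 4043 and 3822 on the controls, 2767 and 2954 at 5 h and 2381 and 2330.0 at 24 h. It was below control at 5 h (-0.46 ± 0.12, adjusted p = 0.0082) and 24 h (-0.74 ± 0.12, adjusted p = 0.00012) and rose from 24 to 48 h (0.46 ± 0.12, adjusted p = 0.0075). The 5 h call was lost without 5 h replicate 1 (adjusted p = 0.060) or control replicate 1 (0.062). Cd247 at 5 h (-0.37 ± 0.13, adjusted p = 0.049) was lost without control replicate 2 (0.34) or either 5 h array (0.25 and 0.066), with no filter (0.079) and with trend and robust variance (0.056). Cd5 was 2336 and 3233 on the controls, 1760.1 and 2065 at 1 h and 3261 and 3202 at 5 h. Its 1 h difference did not pass (-0.53 ± 0.17, adjusted p = 0.053), although both 1 h arrays were below both controls, and it passed without control replicate 1 (-0.76, adjusted p = 0.021). It also passed with the 75th percentile filter (adjusted p = 0.042), in a single fit of all arrays (0.048), on log2 of the value plus 32 (0.048), with the replicate block (0.039) and with trend and robust variance (0.046). Cd6 passed at no time against control in CD8 cells.

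Of the 8 members, 0 were called in CD8 cells at 1 h (4 had an unadjusted limma p under 0.05), 2 fell and 1 rose at 5 h, 5 fell at 24 h and 1 fell at 48 h. The shares over all probe sets tested were 5.02% higher and 9.48% lower at 1 h (723 to 1366, and 910 to 1110 after quantile normalization). They were 15.5% and 13.4% at 5 h, 25.3% and 18% at 24 h, and 15% and 9.98% at 48 h, where a split of 2168 to 1438 became 1949 to 1995. From 5 to 24 h 4 members fell, Cd3g (-0.40 ± 0.12, adjusted p = 0.027), Cd247 (-0.66 ± 0.13, adjusted p = 0.0016), Zap70 and Cd5 (-0.49 ± 0.17, adjusted p = 0.049), with 16.1% of probe sets higher and 9.21% lower (2326 to 1327, and 1912 to 1802 after quantile normalization). The Cd5 and Cd3g calls there were lost without 24 h replicate 1 (adjusted p = 0.27 and 0.13), and also without 24 h replicate 2 or 5 h replicate 2, with Cd5 lost without 5 h replicate 1 and with no filter (0.075) too. Cd3e passed there without 24 h replicate 2 (-1.01, adjusted p = 0.027) or 5 h replicate 1 (-1.01, adjusted p = 0.026), after quantile normalization (-0.76, adjusted p = 0.025) and with the replicate block (-0.69, adjusted p = 0.019). From 24 to 48 h 4 members rose, with 14.9% higher and 17.9% lower. The fourth, Cd247 (0.47 ± 0.13, adjusted p = 0.012), missed the threshold when any 1 of the 4 arrays was left out, with adjusted p from 0.052 to 0.059. In a single fit of all arrays the Cd247 call at 5 h (adjusted p = 0.093), the Cd3g calls at 24 h against control (adjusted p = 0.072), from 5 to 24 h (0.41) and from 24 to 48 h (0.057) and the Lat calls at 5 h (0.21) and from 24 to 48 h (0.19) were lost.

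In CD8 cells at 1 h the differences that did not pass were -0.13 ± 0.28 for Cd3d, -0.10 ± 0.26 for Cd3e, -0.28 ± 0.12 for Cd3g, -0.18 ± 0.13 for Cd247, -0.38 ± 0.16 for Zap70, -0.33 ± 0.12 for Lat and -0.24 ± 0.16 for Cd6, with a lowest adjusted p of 0.082. At 5 h they were -0.44 ± 0.28 for Cd3d, -0.10 ± 0.26 for Cd3e, -0.28 ± 0.12 for Cd3g, 0.23 ± 0.17 for Cd5 and 0.32 ± 0.16 for Cd6, with a lowest adjusted p of 0.10. Each of the 1 h values was below 0, and the 5 h values of both co-receptor genes were above it. By 24 h they were 0.05 ± 0.16 for Zap70, -0.26 ± 0.17 for Cd5 and 0.36 ± 0.16 for Cd6, with a lowest adjusted p of 0.081. At 48 h the remaining values were 0.17 ± 0.28 for Cd3d, -0.32 ± 0.26 for Cd3e, 0.07 ± 0.12 for Cd3g, -0.14 ± 0.16 for Zap70, -0.28 ± 0.12 for Lat, -0.13 ± 0.17 for Cd5 and 0.24 ± 0.16 for Cd6, with a lowest adjusted p of 0.10, and Lat passed there after quantile normalization (-0.41, adjusted p = 0.043). From 5 to 24 h the others were -0.58 ± 0.28 for Cd3d, -0.69 ± 0.26 for Cd3e, -0.28 ± 0.12 for Lat and 0.04 ± 0.16 for Cd6, with a lowest adjusted p of 0.065. From 24 to 48 h they were 0.47 ± 0.26 for Cd3e, -0.19 ± 0.16 for Zap70, 0.12 ± 0.17 for Cd5 and -0.11 ± 0.16 for Cd6, with a lowest adjusted p of 0.19.

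The CD4 and CD8 responses were not shown to differ for any member. Testing the difference of the responses called 0 of 8 at each of 1, 5, 24 and 48 h, and 1, 1, 0 and 1 members had an unadjusted limma p under 0.05. Those were Cd6 at 1 h (0.51 ± 0.22, adjusted p = 1.0), Cd3g at 5 h (0.44 ± 0.17, adjusted p = 0.54) and Zap70 at 48 h (-0.52 ± 0.22, adjusted p = 0.53). Over the 8 members the difference of the responses ran from -0.03 (Lat) to 0.51 (Cd6) at 1 h, -0.27 (Lat) to 0.44 (Cd3g) at 5 h, -0.37 (Zap70) to 0.31 (Cd3g) at 24 h and -0.52 (Zap70) to 0.03 (Cd3g) at 48 h. Few probe sets were called in these tests: 0.0625% higher and 0.0347% lower at 1 h, 0.146% and 0.222% at 5 h, 0.194% and 0.465% at 24 h, and 0.0555% and 0.472% at 48 h. On the control arrays, Cd5 was 2336 and 3233 in CD8 and 4987 and 3684 in CD4 cells, lower on both CD8 arrays without passing (-0.64 ± 0.17, adjusted p = 0.060). It passed without CD4 control replicate 2 (-0.86, adjusted p = 0.032) and without CD8 control replicate 2 (-0.88, adjusted p = 0.029), and also in a single fit of all arrays (adjusted p = 0.038), with the replicate block (0.044) and with trend and robust variance (0.049). The other differences were -0.14 ± 0.28 for Cd3d, 0.10 ± 0.26 for Cd3e, 0.11 ± 0.12 for Cd3g, -0.22 ± 0.13 for Cd247, 0.20 ± 0.16 for Zap70, 0.04 ± 0.12 for Lat and -0.46 ± 0.16 for Cd6, with a lowest adjusted p of 0.18. Of the 8 members 0 were called between CD8 and CD4 controls, 2 with an unadjusted limma p under 0.05 (Cd5 and Cd6), and 2.22% of all probe sets tested were called higher and 0.867% lower. A p that misses the threshold does not show that levels were equal.

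Many genes that work beside the members were below control at 5 and 24 h. A list of 20 signalling partners (kinases, adaptors and co-stimulatory receptors) and a list of 16 brakes (phosphatases, ubiquitin ligases, diacylglycerol kinases and regulatory adaptors) were followed, of which 18 and 16 were measured. The list names are labels, and whether a listed gene helps or restrains signalling in these cells was not tested. In CD4 cells at 24 h 12 of 18 partners fell and none rose, with a median of -0.96 beside 0.04 over all probe sets tested. The most reduced were Themis (-2.02), which is needed for thymocyte selection, Txk (-1.93), a Tec family kinase, and Skap1 (-1.80), an adaptor for integrin activation. Brakes went both ways at 24 h, with 6 of 16 higher and 7 lower, among them Pag1 (-1.45), a docking protein for Csk. In CD8 cells at 24 h 13 partners fell and 1 rose (median -0.87 beside -0.03), and 8 brakes fell and none rose. The adaptor Sit1 changed by -1.82 and Txk by -1.68. At 5 h 11 partners fell and 1 rose in CD4 cells, and 11 fell and 2 rose in CD8 cells. Of the brakes in CD4 cells at 5 h 3 were higher and 6 lower (median -0.34 beside 0.00). In CD8 cells 2 brakes were higher and 8 lower (median -0.49 beside 0.00). Brakes that rose in CD4 cells included the ubiquitin ligase gene Cblb (1.39) and the phosphatase gene Ubash3b (1.80). From 24 to 48 h 10 partners rose in CD4 cells (median 0.70 beside 0.00) and 10 in CD8 cells (median 0.67 beside 0.02), and none fell. Brakes over that span had 6 up and 1 down for CD4, and 8 up and 2 down for CD8. Txk rose by 1.71 and 1.58 and the adaptor gene Fyb by 1.67 and 1.33. At 1 h 6 partners were below and 2 above control for CD4, and 4 below and 2 above for CD8. Of all probe sets tested 13.8% were lower and 6.38% higher at 1 h for CD4, and 9.48% and 5.02% for CD8. Of the brakes at 1 h 5 were below and 2 above for CD4, with 6 below and 2 above for CD8. By 48 h 2 partners were below and 1 above control for CD4, with 0 below and 1 above for CD8. At the same time 7 brakes were above control and 2 below it for CD4, and 2 above and 3 below for CD8. Of all probe sets tested 24.5% were higher and 10% lower at 48 h for CD4, and 15% and 9.98% for CD8. The partner counts at 48 h were near or under those shares. Shares for 5 h, 24 h and the span from 24 to 48 h are given with the member counts above.

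Other T cell genes did not all move alike between control and 24 h. The coreceptor gene Cd4 averaged 4256 in CD4 cells at 24 h and 4358 in their controls (-0.01 ± 0.21, adjusted p = 0.96). Cd8a in CD8 cells averaged 3458 and 5586 (-0.69 ± 0.10, adjusted p = 4.5e-05). The summed intensity of the 6 measured T cell markers was 14528 to 14794 in CD4 cells at 24 h against 17319 to 18439 in controls, and 11259 to 11852 against 14052 to 15581 in CD8 cells, with all 6 above background throughout. Such a sum does not show how each marker moved. The part of the lower sums in the fall of the CD3 chains was not tested. Summed myeloid markers were 559 to 572 against 656 to 659.9 in CD4 cells and 485 to 585 against 555 to 651 in CD8 cells, and of 7 measured B cell markers Cd79b alone was above background at 24 h.

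In the adult thymus, CD69+ DP cells had far more Cd5 and Cd6 than CD69- DP cells, as well as more Zap70, Cd3d and Cd3e. Cd5 was 1245, 1563 and 1141 on the CD69- arrays and 7947, 8474 and 8292 on the CD69+ arrays. The groups were far apart and the difference was 2.66 ± 0.12, adjusted p = 3.6e-13. Cd6 was 1267, 998 and 1024 against 2952, 3709 and 3569.9, also without overlap (1.64 ± 0.12, adjusted p = 1.6e-09). Zap70 was 432, 468 and 436 against 859, 1162 and 946 (1.14 ± 0.11, adjusted p = 6.1e-08). The CD69- cells held the lowest Zap70 mean of all 25 T cell groups. Cd3d was 1047, 1059.9 and 1037 against 1666, 1772 and 1729.8 (0.72 ± 0.10, adjusted p = 8.02e-06). Cd3e was 6881, 7384 and 6675 against 8731, 9824 and 8884, the smallest of the 5 differences that passed (0.39 ± 0.09, adjusted p = 0.0022). In a fit of all arrays its adjusted p was 0.19.

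The other 3 members did not pass between CD69+ and CD69- DP cells. Cd3g was 7412, 7092 and 6829 against 9393, 7322 and 7830.1, with overlap (0.20 ± 0.09, adjusted p = 0.097), and passed only without CD69+ replicate 2 (0.27, adjusted p = 0.039). Cd247 (0.22 ± 0.12, adjusted p = 0.16) and Lat (0.04 ± 0.09, adjusted p = 0.79) also overlapped. So 5 of 8 members rose, while 19.2% of all probe sets tested were called higher and 21.1% lower. Of the lists, 9 of 18 partners and 9 of 16 brakes rose and 2 and 3 fell, with medians of 0.25 and 0.44 beside 0.02 over all probe sets. The adhesion receptor Cd2 rose most (2.89 ± 0.10, adjusted p = 2.3e-14), followed by the co-stimulatory receptor Cd28 (1.25) and the kinase gene Prkcq (1.15). Among brakes Ubash3b (1.13), the diacylglycerol kinase gene Dgkz (1.07) and Csk (1.01), which encodes the kinase that inhibits Lck, rose most. Summed thymocyte markers went the other way, at 42044 to 44969.6 in CD69- and 20191 to 21556 in CD69+ cells.

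**Figure D3:**
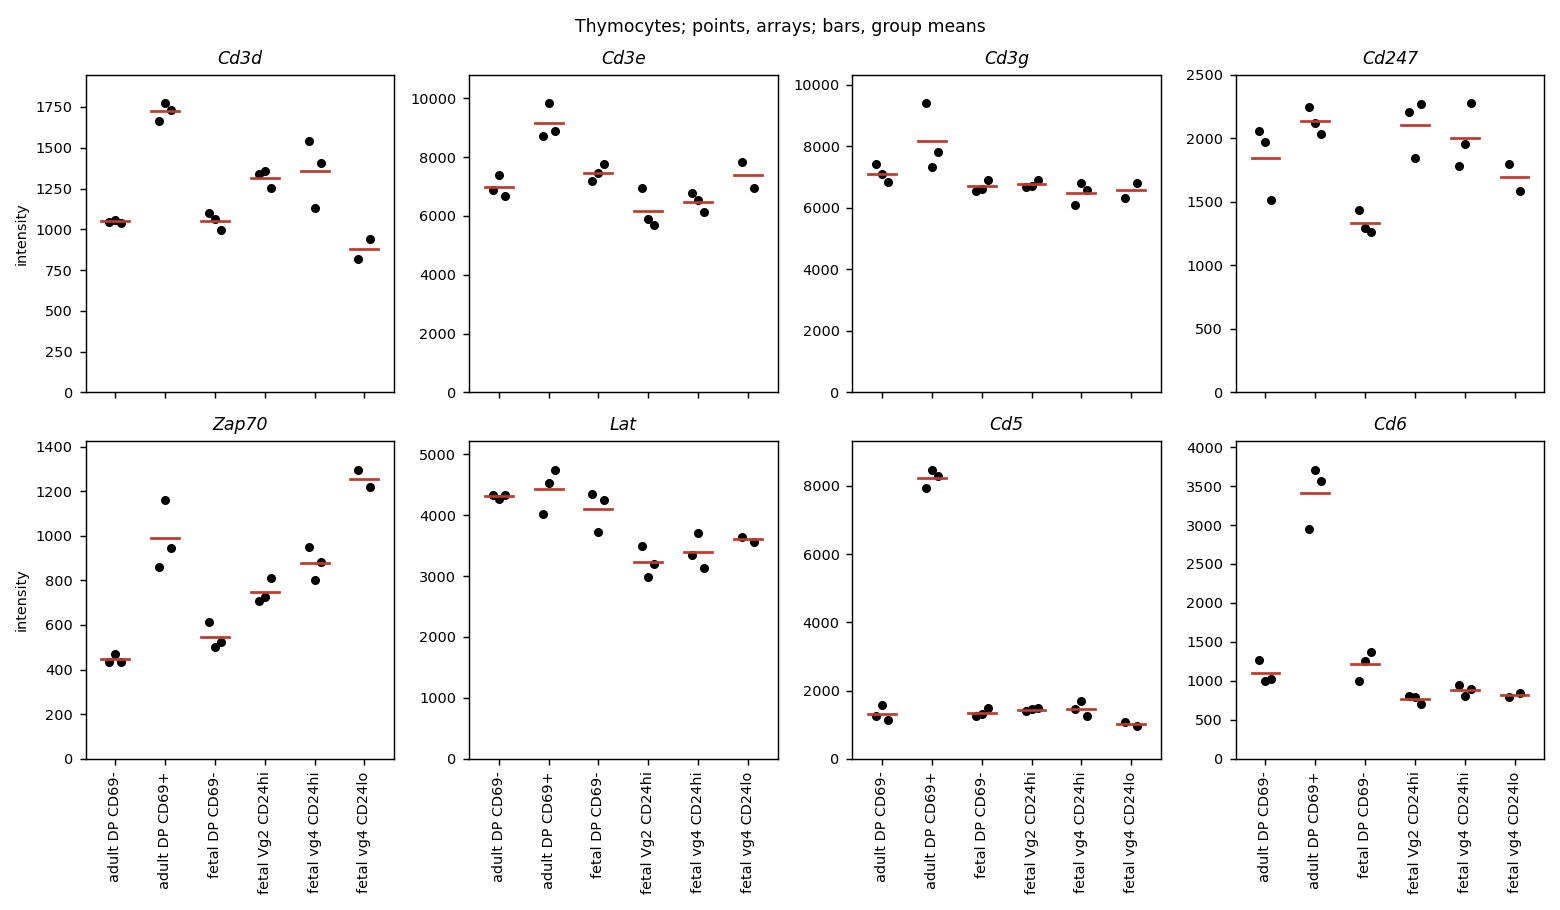
Intensity on every array for 6 groups of thymocytes; points are arrays and red bars are group means. Adult CD69+ DP cells stand apart for Cd5, at 7947, 8474 and 8292, and for Cd6, at 2952, 3709 and 3569.9, and the fetal CD24lo gamma delta cells have Zap70 at 1296 and 1217.

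Fetal and adult CD69- DP cells differed for the zeta chain. Cd247 was 1432, 1294 and 1265 in fetal and 2056, 1968 and 1518 in adult cells (-0.46 ± 0.12, adjusted p = 0.0051), with every fetal array below every adult one. Zap70 was 615, 499 and 525 in fetal and 432, 468 and 436 in adult cells (0.29 ± 0.11, adjusted p = 0.048). The groups did not overlap, but the call was lost when any of 5 of the 6 arrays was left out (all but fetal replicate 2), with adjusted p from 0.057 to 0.22, with no filter (0.080), in a single fit of all arrays (0.17), with the replicate block (0.066) and after quantile normalization (0.20, adjusted p = 0.22). The other differences were 0.01 ± 0.10 for Cd3d, 0.10 ± 0.09 for Cd3e, -0.09 ± 0.09 for Cd3g, -0.07 ± 0.09 for Lat, 0.04 ± 0.12 for Cd5 and 0.14 ± 0.12 for Cd6, with a lowest adjusted p of 0.42, and Cd3g passed after quantile normalization (-0.34, adjusted p = 0.026). Thus 1 member fell and 1 rose, while 24.2% of probe sets were higher and 11.7% lower (3348 to 1616, and 2540 to 2255 after quantile normalization). Partners numbered 1 higher and 6 lower, and brakes 1 higher and 4 lower.

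CD24hi gamma delta thymocytes had more Cd247, Zap70 and Cd3d and less Cd6, Lat and Cd3e than DP cells of the same fetal stage. The mean of both CD24hi gamma delta groups was set against fetal DP cells. Cd247 was 2204, 1845 and 2269 in Vg2+ and 1785, 1957 and 2274 in vg4 CD24hi cells, all above the fetal DP arrays given above (0.62 ± 0.10, adjusted p = 4.2e-05). Zap70 was 706, 725 and 811 in Vg2+ and 949, 803 and 881 in vg4 CD24hi cells, again above all fetal DP arrays (0.57 ± 0.10, adjusted p = 4.7e-05). Cd3d was 1339, 1356 and 1254 in Vg2+ and 1542, 1133 and 1406 in vg4 CD24hi cells against 1098, 1063 and 997 in fetal DP cells (0.34 ± 0.09, adjusted p = 0.0024). Those 3 members were higher in gamma delta cells. Cd6 was 799, 796 and 700.1 in Vg2+ and 952, 799.6 and 894 in vg4 CD24hi cells against 997, 1259.8 and 1373, lower on every array (-0.55 ± 0.11, adjusted p = 0.00024). Lat (-0.31 ± 0.08, adjusted p = 0.0032) and Cd3e (-0.24 ± 0.08, adjusted p = 0.015) were lower too, and Cd3g (-0.01 ± 0.08, adjusted p = 0.90) and Cd5 (0.11 ± 0.10, adjusted p = 0.36) did not pass. The Cd3e call was lost without fetal DP replicate 3 (adjusted p = 0.073), and in a single fit of all arrays Cd3e, Cd3d and Lat were lost (adjusted p = 0.31, 0.092 and 0.16). Over all probe sets tested 29.9% were higher and 25.1% lower, so 3 of 8 members each way is near the background. Partners split into 6 higher and 9 lower, with Cd28 (-1.28) and Themis (-1.22) among the lower, and brakes into 8 and 6.

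CD24lo gamma delta cells, which have matured further than CD24hi cells, differed from them in 3 members. Zap70 was 1296 and 1217 in CD24lo vg4 cells, above all 3 CD24hi arrays (0.52 ± 0.12, adjusted p = 0.0049). Cd3d was 818 and 942 (-0.62 ± 0.11, adjusted p = 0.00041) and Cd5 was 1069 and 950.4 against 1468, 1681 and 1265 (-0.54 ± 0.13, adjusted p = 0.0056). Both were below all CD24hi arrays. Without CD24lo replicate 1 the Zap70 call was lost (adjusted p = 0.075), and without CD24lo replicate 2 the Cd5 call was (0.092). In a single fit of all arrays the Cd3d call was lost (0.051). The other 5 members did not pass, at 0.19 ± 0.10 for Cd3e, 0.02 ± 0.10 for Cd3g, -0.24 ± 0.13 for Cd247, 0.09 ± 0.11 for Lat and -0.11 ± 0.14 for Cd6, with a lowest adjusted p of 0.23. Over all probe sets, 6.94% of all probe sets tested were called higher and 11.8% lower. Partners fell in 12 of 18 cases and rose in none (median -0.49 beside -0.02). Themis changed by -3.13, the transmembrane adaptor gene Trat1 by -3.02 and Cd28 by -2.87. Brakes had 2 higher and 7 lower. Between Vg2+ and vg4 CD24hi cells 0 of 8 members were called and 0 had an unadjusted limma p under 0.05, in a comparison where 0.21% of probe sets were higher and 0.564% lower. Their differences ± SE were -0.04 ± 0.10 for Cd3d, -0.07 ± 0.09 for Cd3e, 0.06 ± 0.09 for Cd3g, 0.07 ± 0.12 for Cd247, -0.23 ± 0.11 for Zap70, -0.07 ± 0.09 for Lat, -0.02 ± 0.12 for Cd5 and -0.20 ± 0.12 for Cd6, with a lowest adjusted p of 0.74.

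Among spleen CD4 cells, effectors of the LCMV infection had less Cd247 and more Cd6 than naive cells. The naive arrays carry no infection label, so effects of infection and of cell state cannot be told apart. Cd247 was 2048 and 2077 in naive, 1365 and 1239 in effector and 1459 and 1414 in memory cells. Neither effector nor memory arrays overlapped with the naive ones, and the differences from naive were -0.67 ± 0.12, adjusted p = 0.0031 and -0.52 ± 0.12, adjusted p = 0.020. The memory call was lost without either memory array (adjusted p = 0.13 and 0.16). Cd6 was 1236 and 1786 in naive, 2573 and 2839 in effector and 2199 and 2204 in memory cells. Every effector and memory array was above both naive arrays, which passed for effectors (0.86 ± 0.17, adjusted p = 0.0054) and not for memory cells (0.57 ± 0.17, adjusted p = 0.062), as run. The memory difference passed without naive replicate 3 (0.83, adjusted p = 0.0029), in a single fit of all arrays (adjusted p = 0.033), on log2 of the value plus 32 (0.048), after quantile normalization (0.021), with trend and robust variance (0.037) and with the replicate block (0.80, adjusted p = 0.0074). The block ended the memory call for Cd247 (-0.47, adjusted p = 0.088). Cd3d, with naive arrays at 895 and 1552, was called lower in memory cells without naive replicate 1 (-0.82, adjusted p = 0.0077). Lat was 4133 and 5063 in naive and 3298 and 3703 in effector cells, and did not pass as run (-0.39 ± 0.14, adjusted p = 0.064). It passed without naive replicate 1 (-0.54, adjusted p = 0.018), with the 75th percentile filter (adjusted p = 0.047), on log2 of the value plus 32 (0.048), after quantile normalization (0.018) and with trend and robust variance (0.026). The other effector differences from naive were 0.07 ± 0.24 for Cd3d, -0.18 ± 0.14 for Cd3e, -0.07 ± 0.13 for Cd3g, 0.20 ± 0.13 for Zap70 and 0.20 ± 0.12 for Cd5, with a lowest adjusted p of 0.23. The other memory differences were -0.42 ± 0.24 for Cd3d, -0.19 ± 0.14 for Cd3e, -0.33 ± 0.13 for Cd3g, -0.01 ± 0.13 for Zap70, -0.20 ± 0.14 for Lat and 0.23 ± 0.12 for Cd5, with a lowest adjusted p of 0.12, and Cd3g passed there with trend and robust variance (0.034).

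In counts, effectors had 1 member higher and 1 lower than naive cells beside 18.7% of probe sets higher and 13.5% lower. Memory cells had 1 member lower than naive cells beside 8.03% higher and 6.44% lower. Between memory and effector cells limma called 0 of 8, with 0 at an unadjusted p under 0.05, beside 2.45% higher and 6.15% lower (327 to 820, and 641 to 853 after quantile normalization). The differences of memory from effector cells were -0.49 ± 0.24 for Cd3d, 0.00 ± 0.14 for Cd3e, -0.26 ± 0.13 for Cd3g, 0.14 ± 0.12 for Cd247, -0.21 ± 0.13 for Zap70, 0.18 ± 0.14 for Lat, 0.02 ± 0.12 for Cd5 and -0.30 ± 0.17 for Cd6, with a lowest adjusted p of 0.24, and Cd3d passed with the replicate block (-0.49, adjusted p = 0.034). The 3 comparisons share arrays. Of 18 partners, 6 were lower and 2 higher in effectors, the largest change being Trat1 (-2.88 ± 0.13, adjusted p = 1.02e-06). On the list of 16 brakes, 6 were higher and 3 lower in effectors, with Sh2d1a, which encodes the adaptor SAP, up by 1.19 and the phosphatase gene Ptpn22 by 1.09. Memory cells had 5 partners lower and 0 higher, and 4 brakes higher and 0 lower, than naive cells. Against effectors they had 1 partner higher and 0 lower, and 1 brake higher and 0 lower. Summed myeloid markers were 615 to 626 in naive, 915 to 931 in effector and 679 to 759.7 in memory cells, and their part in these differences was not tested.

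**Figure D4:**
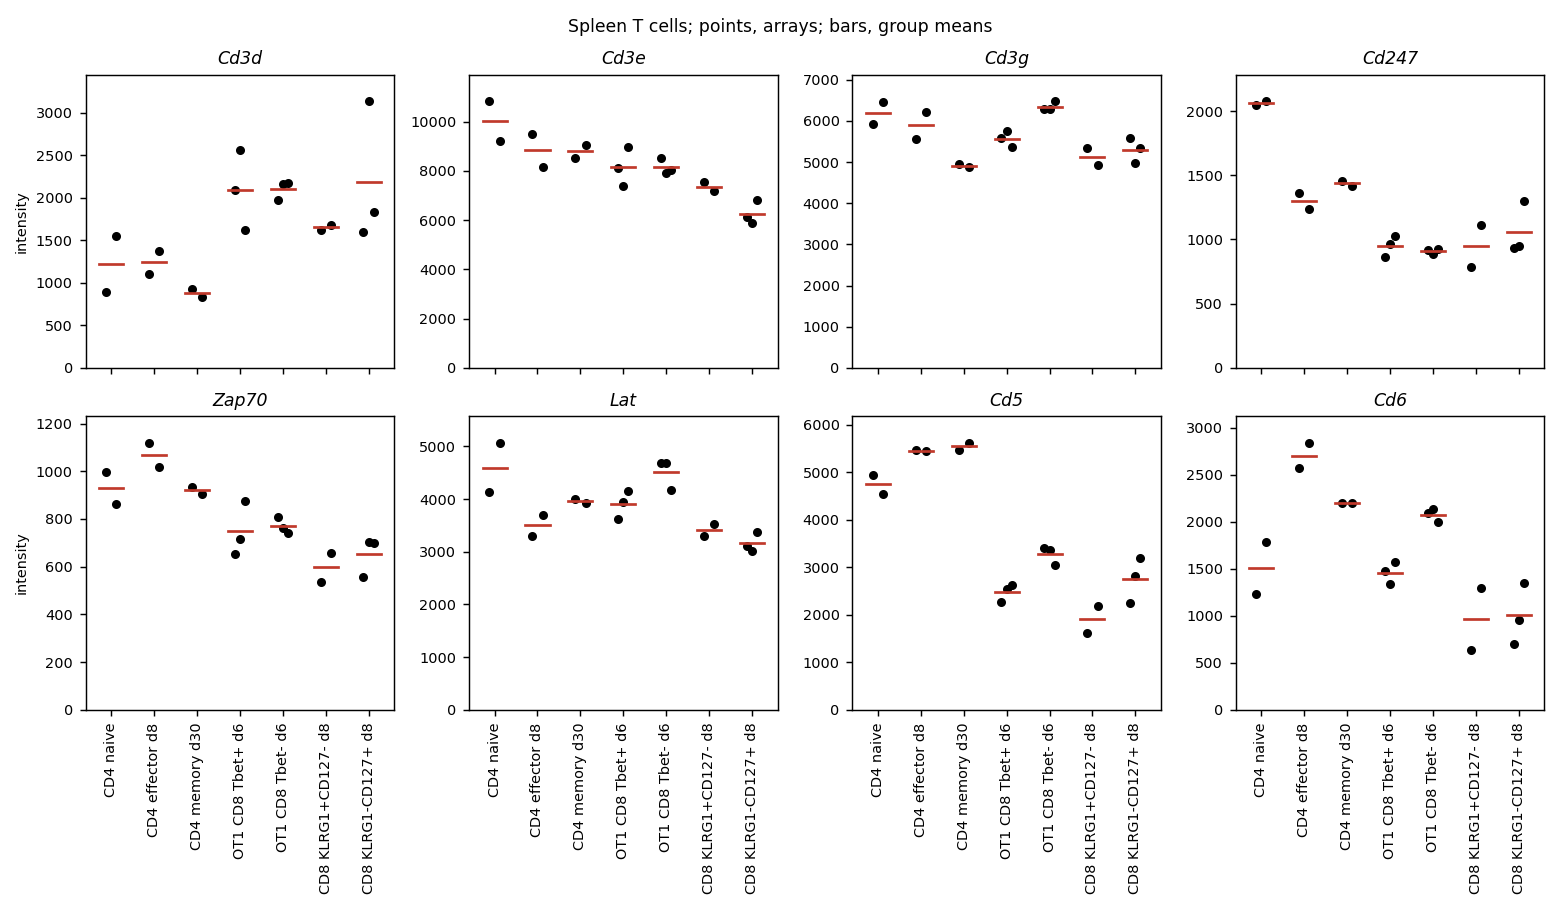
Intensity on every array for 7 groups of spleen T cells; points are arrays and red bars are group means. Cd247 is at 2048 and 2077 in naive CD4 cells, 1365 and 1239 in effector and 1459 and 1414 in memory CD4 cells, and Cd6 is higher in Tbet- than in Tbet+ effectors on all 3 arrays of each.

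Tbet- OT1 effectors had more Cd6 than Tbet+ ones. The Tbet- cells were CD45.1+ and the Tbet+ cells CD45.2+, so effects of T-bet and of the origin of the cells cannot be told apart. Cd6 was 2093, 2138 and 2003 in Tbet- and 1474, 1334 and 1572 in Tbet+ cells, without overlap (0.51 ± 0.11, adjusted p = 0.016). The call was lost without any of the 3 Tbet- arrays (adjusted p = 0.074, 0.091 and 0.065). Cd5 was 3415, 3369 and 3041 against 2279, 2538 and 2633, also without overlap, and missed the threshold (0.40 ± 0.11, adjusted p = 0.051). It passed without Tbet+ replicate 2 (0.42, adjusted p = 0.041), on log2 of the value plus 32 (adjusted p = 0.040) and with trend and robust variance (0.044). The other differences were 0.03 ± 0.16 for Cd3d, 0.00 ± 0.11 for Cd3e, 0.19 ± 0.10 for Cd3g, -0.06 ± 0.11 for Cd247, 0.05 ± 0.13 for Zap70 and 0.21 ± 0.11 for Lat, with a lowest adjusted p of 0.31. One member of 8 was higher, and 5.73% of all probe sets tested were called higher and 3.96% lower. On the partner list 3 were higher, the GTPase gene Rhoh (0.77), Sit1 (0.74) and Trat1 (0.62), and 1 was lower. Of the brakes 1 was higher (Dgka, 0.80) and 2 were lower. Summed NK markers were 1268 to 1534 in Tbet- and 1976 to 2226 in Tbet+ cells and summed myeloid markers 824 to 941 and 1430.2 to 1494, which was not tested as a part of the Cd6 difference.

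As run, no member passed the test between day 8 KLRG1+ CD127- and KLRG1- CD127+ CD8 cells. Cd5 came closest, at 1619 and 2189 in KLRG1+ and 2245, 2824 and 3196 in KLRG1- cells, where the groups did not overlap (-0.53 ± 0.24, adjusted p = 0.66), and it passed in a single fit of all arrays (adjusted p = 0.035). The other differences were -0.34 ± 0.29 for Cd3d, 0.24 ± 0.19 for Cd3e, -0.05 ± 0.19 for Cd3g, -0.17 ± 0.24 for Cd247, -0.13 ± 0.21 for Zap70, 0.11 ± 0.19 for Lat and -0.09 ± 0.35 for Cd6, with a lowest adjusted p of 0.85. Limma called 0 of 8 members and 1, Cd5, had an unadjusted p under 0.05, beside 0.153% of probe sets higher and 0.229% lower. Neither list had a called gene. The spread was wide: Cd3d was 1599.6, 3137 and 1831 on the KLRG1- arrays, and summed myeloid markers ran from 939 to 6034 within that group.

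Outside T cells, thymic cortical epithelium titled CEChi was the highest group for Cd3e, Cd3g, Zap70 and Cd6. Cd3g was 1141 and 1126 there, 194 and 189 in Sca1+ cortical and 194 and 236 in medullary (MEChi) epithelium. Lat was 935 and 713 in CEChi, 216 and 186 in Sca1+ cortical and 106 and 94.6 in medullary cells, and Cd3e was 1465 and 909.9 in CEChi, 593 and 326 in Sca1+ cortical and 200.1 and 196 in medullary cells. CEChi arrays were above all others of these groups for each of the 8 members. Against medullary cells the differences were 3.03 ± 0.17, adjusted p = 1.6e-06 for Lat, 2.54 ± 0.29, adjusted p = 0.00013 for Cd3e and 2.40 ± 0.15, adjusted p = 2.8e-06 for Cd3g. Cd247 (1.07 ± 0.17, adjusted p = 0.00084), Cd5 (0.79 ± 0.18, adjusted p = 0.0069) and Cd6 (0.60 ± 0.13, adjusted p = 0.0059) passed as well. Cd3d, at 108 and 133 in CEChi cells, and Zap70, at 99.8 and 90.5, were too dim for the filter. So 6 of the 6 tested members were higher, where 24.9% of all probe sets tested were called higher and 23.1% lower. A member that passed the filter only through the CEChi group had to differ, so this count and the adjusted p-values of the members are descriptions.

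Genes of thymocytes went with these values. The summed intensity of 9 measured thymocyte markers was 4794 to 4819 in CEChi, 949 to 1098 in Sca1+ cortical and 689 to 742 in medullary cells, with 8, 5 and 3 of the 9 above background. Summed coreceptors (Cd4, Cd8a and Cd8b1) were 2751 to 2755, 511 to 617 and 397 to 430.3. The 7 epithelial markers were all above background in each group, with sums of 23898 to 27078, 16040.1 to 18443 and 20137 to 20516. The part of thymocyte RNA in the member signal was not tested. Of 16 tested partners 13 were higher in CEChi than in medullary cells (median 1.16 beside 0.08), led by Prkcq (4.26), Themis (3.69) and the adaptor gene Grap2 (3.14), as were 7 of 15 tested brakes. Listed genes, too, had to differ if only the CEChi group brought them past the filter, so these counts are descriptions. In Sca1+ cortical cells all 6 tested members were lower than in CEChi cells, where 5.93% of all probe sets tested were called higher and 6.75% lower. Here too a member that passed the filter only through the CEChi group had to differ, so this count and the adjusted p-values of the members are descriptions. The differences were -2.57 ± 0.15, adjusted p = 6.6e-05 for Cd3g, -2.03 ± 0.17, adjusted p = 0.00022 for Lat and -1.39 ± 0.29, adjusted p = 0.017 for Cd3e. They were -0.92 ± 0.17, adjusted p = 0.0092 for Cd247, -0.88 ± 0.18, adjusted p = 0.016 for Cd5 and -0.67 ± 0.13, adjusted p = 0.013 for Cd6. The calls for Cd3e, Cd247 and Cd5 were lost without CEChi replicate 1 (adjusted p = 0.096, 0.064 and 0.091) and those for Cd5 and Cd6 without CEChi replicate 2 (0.063 and 0.10). Both comparisons share the CEChi arrays. Partners fell in 15 of 16 cases and brakes in 3 of 15, counts that carry the same limit of the filter.

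Lat was the member that was high in mast cells and on the basophil array. Mast cells are known to use Lat downstream of the high-affinity IgE receptor. Lat was 1902, 1794 and 1785 in skin mast cells, 939, 1425, 827 and 1339 on arrays titled peritoneal mast cells, 1549 on the array titled MC.To, 1504 on that titled MC.digest.PC and 1056 in blood basophils. Of the 4 peritoneal arrays the last 2 give blood as their source and the first lists only Mast+ as its phenotype. Blood eosinophils had Lat at 194, 268 and 92.8, far below every mast cell array. The differences from eosinophils were 3.43 ± 0.31, adjusted p = 1.3e-07 for skin and 2.71 ± 0.29, adjusted p = 1.02e-06 for peritoneal mast cells, and 2.77 without the arrays from blood. All 8 mast cell markers were above background on the mast cell groups, with sums of 53844 to 57017 in skin and 52809.8 to 61231 in peritoneal cells, against 929 to 2474 in eosinophils. The summed T cell markers were 3823 to 4416 in skin and 486 to 769 in peritoneal mast cells and 592 to 942 in eosinophils, and their part in the Lat difference was not tested. The T cell markers above background in skin mast cells were Cd2, Bcl11b, Il7r and Ccr7. Cd3g was 40.0, 48.6 and 45.0 and Zap70 92.1, 79.9 and 73.3 in skin mast cells, near or below background.

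Of 6 members tested in these comparisons Lat alone was called as run. In skin the other differences were -0.36 ± 0.20 for Cd3d, -0.39 ± 0.28 for Cd3e, -0.16 ± 0.16 for Cd247, -0.07 ± 0.22 for Cd5 and 0.03 ± 0.19 for Cd6, with a lowest adjusted p of 0.15. In peritoneal cells they were -0.32 ± 0.18 for Cd3d, -0.53 ± 0.26 for Cd3e, 0.15 ± 0.15 for Cd247, -0.24 ± 0.21 for Cd5 and 0.02 ± 0.17 for Cd6, with a lowest adjusted p of 0.10. In skin 27% of probe sets were higher and 18.6% lower, and in peritoneal cells 31.6% and 18.2% (4771 to 2738, and 4055 to 3615 after quantile normalization, with a median shift of -0.12). Both comparisons share the eosinophil arrays, of which replicate 2 had Cd3e at 385 and Cd3g at 228. Cd3e was called lower in peritoneal cells without eosinophil replicate 3 (-0.75, adjusted p = 0.034) or replicate 5 (-0.77, adjusted p = 0.028) and in a single fit of all arrays (adjusted p = 0.020), and Cd3d without peritoneal replicate 0 (-0.45, adjusted p = 0.049). Partners went both ways between mast cells and eosinophils. Among those that were higher in mast cells was Fyn, a Src family kinase gene, up by 4.33 in skin and 3.42 in peritoneal cells. Plcg1, which encodes phospholipase C gamma, was up by 2.69 and 2.26, and Grap2, whose protein binds Lat, by 2.45 and 2.66. Of 10 tested partners 4 were higher and 4 lower in skin, and 5 and 3 in peritoneal cells. Of 15 tested brakes 1 was higher and 7 were lower in skin, and 3 and 6 in peritoneal cells.

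**Figure D5:**
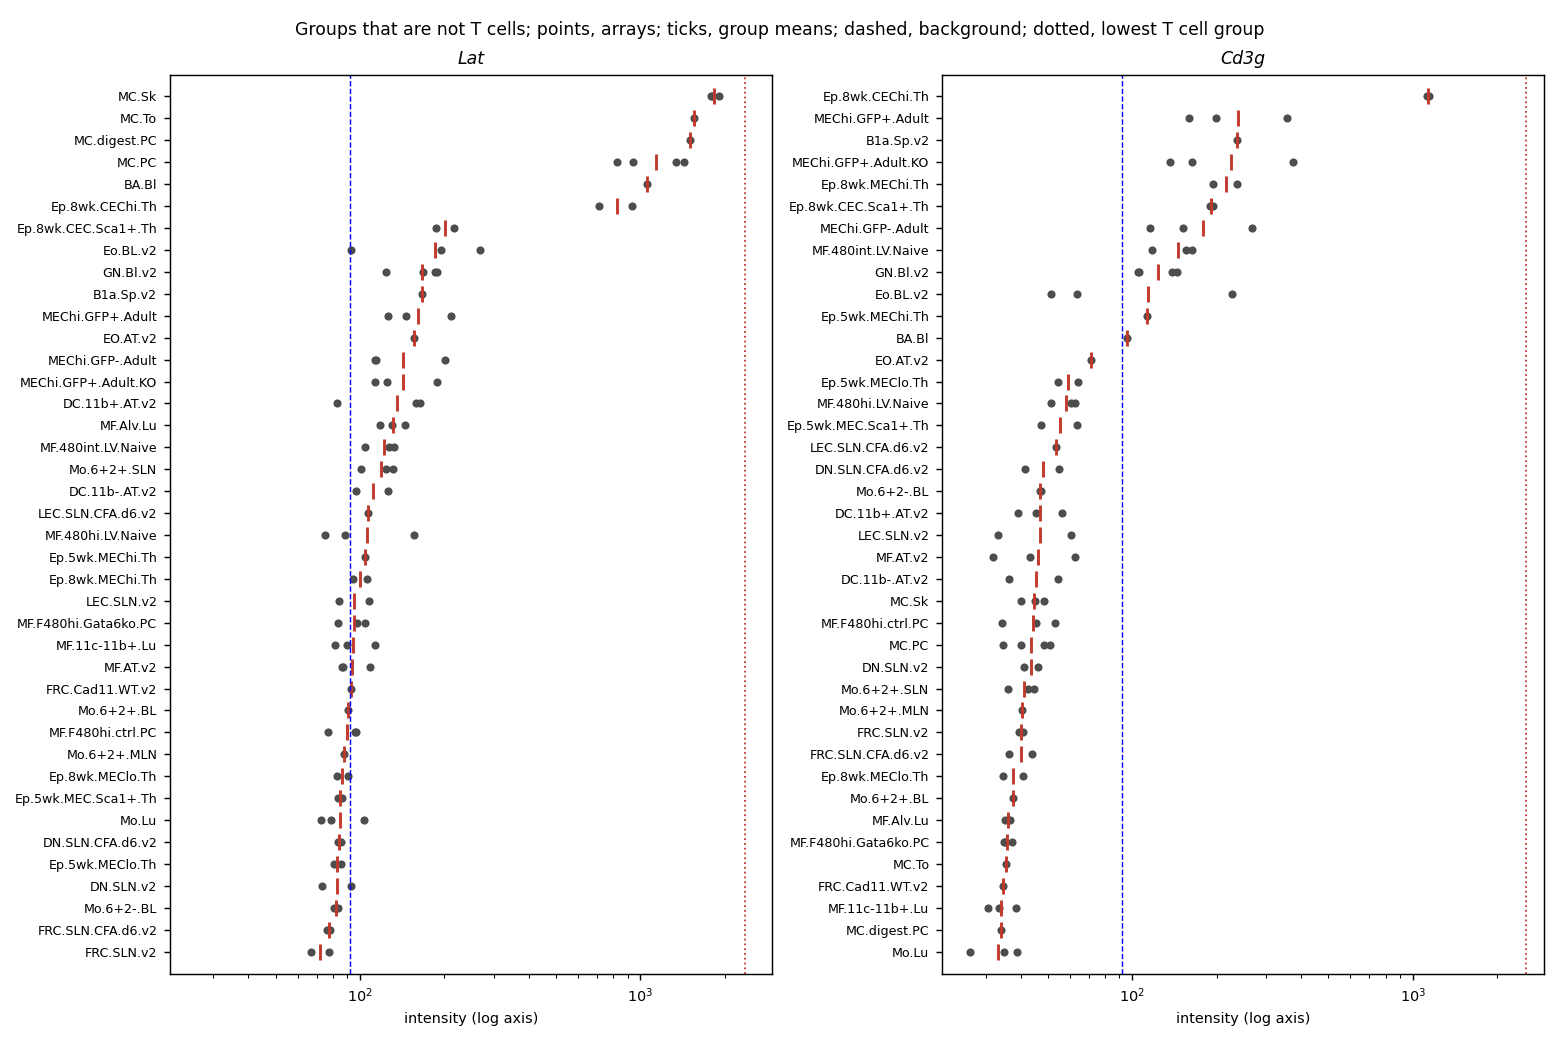
Intensity of Lat (left) and Cd3g (right) on a log axis in the 40 groups that are not T cells, ordered by group mean; points are arrays, red ticks group means, the dashed line the background level of 91.8 and the dotted line the lowest T cell group mean. Lat is led by mast cells up to 1827 and basophils at 1056, and Cd3g by CEChi thymic epithelium at 1133.

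Single arrays gave further levels outside T cells. The spleen B1a group, B cells of the innate-like kind that are defined by surface CD5, had Cd5 at 671, the highest of the 40 other groups, with Cd3g at 236 and Cd6 at 109. This is 1 array, whose phenotype field reads CD4+ CD8+ CD69+, and all 7 measured B cell markers were above background on it, with a summed coreceptor intensity of 312. The zeta chain gene Cd247 was highest outside T cells in lymph node lymphatic endothelium (280.4 and 219), with fibroblastic reticular cells at 241 and 204.

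Levels of the members correlated more closely across all groups than among T cell groups. Over all 65 group means the Pearson correlation of log2 levels ran from 0.889 to 0.984 over 28 pairs of members, with a median of 0.956, which describes the gap between T cells and the rest. Over the 25 T cell groups it ran from -0.24 to 0.866, with a median of 0.162. Cd5 and Cd6 were closest (0.866, and 0.833 over the 24 groups without CD69+ DP cells), followed by Cd3g and Lat (0.727 and 0.700) and Cd3e and Lat (0.695 and 0.672). Cd3g correlated with Cd247 at 0.628 and with Cd3d at 0.596, and Cd3d with Zap70 at -0.24. Groups of 1 tissue or culture share their source, so these values are descriptions.

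Genes whose group means were most like the mean of the members were looked for among 14609 candidates. Over 65 groups they were Cd96 (0.986), Cd27 (0.982), Sh2d2a (0.981), Txk (0.976) and Lef1 (0.975). Cd96 and Cd27 encode lymphocyte surface receptors, Sh2d2a an adaptor of T cells and Lef1 a transcription factor. Over the 25 T cell groups they were Tmc8 (0.897), Vps9d1 (0.860), Dram2 (0.813), Zfp317 (0.807) and Mbd6 (0.806). No gene stood in both sets. By member, Cd96 was the closest gene over 65 groups for Cd3d (0.980), Cd3e (0.990) and Cd6 (0.970), Cd27 for Cd3g (0.982), Txk for Cd247 (0.962), Sh2d2a for Zap70 (0.979) and Cd5 (0.976), and the adaptor gene Skap1 for Lat (0.936). The next were Txk and Skap1 (both 0.968) for Cd3d, Cd27 (0.987) and Txk (0.978) for Cd3e, Cd96 (0.978) and Lef1 (0.968) for Cd3g, and Lef1 (0.958) and Cd96 (0.956) for Cd247. For Zap70 they were Cd27 (0.960) and Cd96 (0.959), for Lat Ptprcap (0.922) and Ubash3a (0.917), for Cd5 Cd27 (0.967) and Lef1 (0.966), and for Cd6 Ubash3a (0.966) and Cd27 (0.965).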

How the data were processed

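Sorted mouse cells were profiled on Affymetrix arrays from TriZol RNA. The deposited matrix holds an intensity per probe set and array on the linear scale, which the authors made with Affymetrix Power Tools and RMA, per the submitters' processing notes; their versions: not given in the sources used here. Values were taken as log2 and a probe set entered a fit if at least 1 group's mean was no lower than the overall median of the arrays fitted. Of 24922 probe sets, 21425 carry 1 symbol, 1399 several and 2098 none, and each measured member has 1 probe set, so no other probe set of a member could be tried. Linear models were fitted with limma 3.58.1 (lmFit and eBayes) in R 4.3.3 with data.table (1.17.8), on the arrays of each tissue set, and p-values were adjusted by the Benjamini-Hochberg method over all probe sets tested, with calls at 0.05. Fits were tested on simulated data. All measured members are named in every comparison, except that the tests of CD8 against CD4 responses are given by range, with up to 3 called genes per signalling list, the 5 genes most like the members' mean and 3 per member, and the genes that labels name. The members and lists were chosen with earlier results of these data known. Alternatives were no filter, a 75th percentile filter, quantile normalization, log2 of the value plus 32, all arrays in a single fit, trend and robust variance, a replicate block, each array left out, and omission of arrays with blood as source. Lck is not analysed here.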

Additional observations from a re-analysis of the deposited data

Results flagged for a closer look

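In the 4 arrays titled peritoneal mast cells, Zap70 was 55.3, 51.5, 80.8 and 52.4. The gap between the highest array and its nearest neighbour was 0.869 of the group's range, past Dixon's 95% critical value for 4 arrays. All 4 values lie below the background level of 91.8. Both groups of 4 arrays were examined for the 8 members, which is 16 checks, and chance singles out about 1 in 20.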

How the results depend on the processing

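Counts are members called of 8 measured. Here and for the left-out arrays below, only the larger moves of a count are listed, so a comparison not named may also have changed. No member changed direction while called under any alternative run. Over left-out arrays 1164 member results kept their side of the threshold, 61 lost the call and 19 gained it, and over the other settings 1609, 26 and 35. The causes were not tested. With a 75th percentile filter, CD8 cells at 1 h had 1 member called, Cd5. Both epithelial comparisons had 3, since Cd247, Cd5 and Cd6 did not pass this filter there and were not tested. With no filter, fetal against adult DP had 1 and skin and peritoneal mast cells had 2 each. Quantile normalization gave 1 in CD4 cells at 48 h, 5 from 5 to 24 h in CD4 cells, 2 in CD8 cells at 48 h and 2 for CD4 memory against naive. With log2 of the value plus 32, the counts were 1 in CD8 cells at 1 h and 2 each for CD4 memory against naive and Tbet- against Tbet+. In a single fit of all arrays they were 1 in CD8 cells at 1 h, 1 at 5 h, 2 from 24 to 48 h, 1 for CD8 against CD4 controls, 2 for CD4 memory against naive, 1 for KLRG1+ against KLRG1-, 1 for fetal against adult DP, 3 for gamma delta against fetal DP and 2 for peritoneal mast cells. With trend and robust variance they were 1 in CD8 cells at 1 h, 1 for CD8 against CD4 controls, 3 for CD4 memory against naive and 2 for Tbet- against Tbet+.

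Equal replicate numbers were not taken to pair the arrays. Over 71 pairs of groups, 12 shared at least 3 numbers, and in 1 of these was every correlation of deviations over 0.1. Of the other 59, which shared 2 numbers, 33 had every correlation over 0.1, and the correlations ran from -0.24 to 0.68. Between CD8 culture groups they ran from 0.098 (1 with 48 h) to 0.60 (24 h with control). Between CD4 culture groups they ran from -0.11 (1 with 5 h) to 0.68 (24 with 48 h). The tests of the culture series as run do not model such sharing. With the replicate block, the count was 1 in CD8 cells at 1 h, 1 for CD8 against CD4 controls, 1 for CD4 memory against effector and 1 for fetal against adult DP. It was 4 in CD4 cells at 5 h and 5 from 5 to 24 h in CD8 cells, and the other counts were as without the block. For CD4 memory against naive the count of 1 held another gene, since Cd247 was lost (-0.47, adjusted p = 0.088) and Cd6 gained (0.80, adjusted p = 0.0074). Crossing the numbers of the medullary arrays, an alternative chosen after seeing the data, gave 6 members called in cortical against medullary epithelium.

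With each of 70 arrays left out in turn, members called ran from 1 to 3 for CD4 1 h against control, 4 to 6 for CD4 24 h against control, 2 to 4 for CD4 48 h against 24 h, 0 to 1 for CD4 48 h against control, 0 to 1 for CD8 against CD4 control, 0 to 1 for CD8 1 h against control, 3 to 5 for CD8 24 h against control, 2 to 4 for CD8 24 h against 5 h, 0 to 1 for CD8 48 h against control, 1 to 2 for CD8 5 h against control, 0 to 2 for CD4 memory against naive, 0 to 2 for Tbet- against Tbet+ CD8 effectors, 1 to 2 for Fetal against adult DP, 3 to 6 for Sca1+ cortical against cortical epithelium, 1 to 2 for Peritoneal mast cells against blood eosinophils. Counts over all probe sets ran from 1397 to 2899 for CD4 1 h against control, 4 to 285 for CD8 response against CD4 response at 1 h, 3122 to 4173 for CD4 24 h against 5 h, 47 to 115 for CD8 response against CD4 response at 24 h, 2934 to 4382 for CD4 48 h against control, 38 to 94 for CD8 response against CD4 response at 48 h, 14 to 75 for CD8 response against CD4 response at 5 h, 242 to 528 for CD8 against CD4 control, 958 to 1375 for CD8 1 h against control, 2375 to 2946 for CD8 24 h against 5 h, 2268 to 2719 for CD8 48 h against control, 2573 to 4735 for CD4 effector against naive, 450 to 650 for CD4 memory against effector, 954 to 2479 for CD4 memory against naive, 647 to 1528 for Tbet- against Tbet+ CD8 effectors, 6 to 52 for KLRG1+CD127- against KLRG1-CD127+ CD8, 51 to 112 for Fetal Vg2 against Vg4 CD24hi, 1386 to 2685 for Fetal Vg4 CD24lo against CD24hi, 945 to 3792 for Sca1+ cortical against cortical epithelium.

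Groups of 1 array were not tested, and in simulated data 19.4% of changes of 0.5 on the log2 scale were recovered for CD4 cells at 24 h, against 85.1% of changes of 1. At 0.5 the share was 67.2% for CD69+ against CD69- DP cells and 23.9% for Tbet- against Tbet+ effectors. The simulation changed fewer probe sets than were called in these data, so the shares do not give the power of the tests run. Levels near the background of 91.8 have little room to differ.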
